A study of Mus musculus with 22 samples.

Results

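ATF4 is a transcription factor at the end of the integrated stress response, and Atf4 was followed here together with 9 genes of that pathway: Atf5, Ddit3, Trib3, Chac1, Asns, Psat1, Mthfd2, Ddit4 and Sesn2. These 10 were taken by symbol from a table of read counts of 52327 genes in sorted mouse pancreatic β-cells, and all 10 were among the 14064 genes that passed the filter on low counts. After refeeding, 3 of the 10 were lower in mice whose other islet endocrine cells had been ablated, where 13.5% of all genes were lower, and 6 of the 10 in control mice, where 12.3% were. No gene of the set passed the test between ablated and control mice.

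The table covers 22 male mice of mixed background, aged 3 months, with 1 library of bulk RNA per mouse. All mice, controls included, carried GluDTR+, SstDTR htz and PpyDTR htz, alleles that place the diphtheria toxin receptor under promoters of the other islet endocrine cells, so that diphtheria toxin (DT) can remove α-, δ- and γ-cells. Mice were taken 1 month after ablation. Refed DT mice (n = 6) had received DT and were fasted for 8 h and then fed for 2 h, and refed control mice (n = 5) had the same fast and meal. Fasted DT mice (n = 6) and fasted control mice (n = 5) were taken after the 8 h fast. The labels do not say what control mice received in place of DT, and they name a single endpoint per mouse, so nothing was followed over time within an animal.

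In the integrated stress response, kinases that sense unfolded protein, amino acid shortage, viral RNA or lack of heme phosphorylate the translation factor eIF2. General translation then slows while the mRNAs of ATF4 and ATF5 are translated more, and ATF4 switches on genes for amino acid synthesis, transport and tRNA charging along with its own feedback inhibitors and the apoptosis gene Ddit3 (CHOP). β-cells make large amounts of proinsulin in the endoplasmic reticulum, and loss of the eIF2 kinase PERK causes diabetes in mice and humans. Because ATF4 is controlled mainly at translation, its mRNA level and its activity need not move together.

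Promoter windows were found in RefSeq for all 10 genes, 12 windows in all, since Atf5 and Psat1 have a pair each. Each window runs from 250 bases before to 50 bases after a gene's RefSeq start on GRCm38.p6. These starts can differ from the gene positions given below, which are from GENCODE. The windows of Psat1 and Mthfd2 lie inside those positions. Both strands were searched for TGATGNAA and for TGNNGCAAT, letters of the amino acid response and C/EBP-ATF elements through which ATF4 acts at known targets. The letters were chosen after the sequences had been seen. A window of any gene held TGATGNAA in 3.97% of 32851 windows, TGNNGCAAT in 2.12% and either in 5.80%. Of the 10 genes, 4 held a match, namely Trib3, Chac1, Asns and Psat1. The shares count windows while this counts genes, of which Atf5 and Psat1 have a pair of windows each. The other window of Psat1 held no match and is not shown. A match only describes the letters, and the absence of one says nothing of ATF4 binding. The windows of the 6 genes that were lower in refed control mice are shown because the results turn on them; they read 5′ to 3′ on the strand of the gene, and capitals mark matches to the letters searched.
Trib3, chr2:152344011-152344310, minus strand: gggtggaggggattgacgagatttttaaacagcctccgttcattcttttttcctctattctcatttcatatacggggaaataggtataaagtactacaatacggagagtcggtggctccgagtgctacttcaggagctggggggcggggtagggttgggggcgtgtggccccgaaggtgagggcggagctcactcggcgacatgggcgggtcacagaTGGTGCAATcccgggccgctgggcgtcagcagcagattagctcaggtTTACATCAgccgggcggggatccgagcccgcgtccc
Chac1, chr2:119350992-119351291, plus strand: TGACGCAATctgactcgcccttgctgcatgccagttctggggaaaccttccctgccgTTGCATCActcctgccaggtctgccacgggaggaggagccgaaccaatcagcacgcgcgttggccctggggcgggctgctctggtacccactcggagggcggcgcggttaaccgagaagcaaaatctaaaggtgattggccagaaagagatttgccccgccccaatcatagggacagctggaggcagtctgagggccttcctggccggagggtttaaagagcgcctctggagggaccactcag
Asns, chr6:7693160-7693459, minus strand: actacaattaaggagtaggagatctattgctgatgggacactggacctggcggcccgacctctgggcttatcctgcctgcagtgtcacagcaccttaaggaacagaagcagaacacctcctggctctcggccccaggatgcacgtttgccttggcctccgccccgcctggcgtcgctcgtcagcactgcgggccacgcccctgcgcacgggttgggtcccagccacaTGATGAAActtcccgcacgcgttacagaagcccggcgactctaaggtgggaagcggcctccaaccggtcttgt
Psat1, chr19:15925010-15925309, minus strand: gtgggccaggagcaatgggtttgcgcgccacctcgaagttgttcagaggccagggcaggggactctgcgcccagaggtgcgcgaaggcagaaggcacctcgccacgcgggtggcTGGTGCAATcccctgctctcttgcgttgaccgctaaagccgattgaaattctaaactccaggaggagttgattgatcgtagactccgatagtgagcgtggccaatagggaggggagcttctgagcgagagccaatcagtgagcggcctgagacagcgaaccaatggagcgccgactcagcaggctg
Mthfd2, chr6:83317555-83317854, minus strand: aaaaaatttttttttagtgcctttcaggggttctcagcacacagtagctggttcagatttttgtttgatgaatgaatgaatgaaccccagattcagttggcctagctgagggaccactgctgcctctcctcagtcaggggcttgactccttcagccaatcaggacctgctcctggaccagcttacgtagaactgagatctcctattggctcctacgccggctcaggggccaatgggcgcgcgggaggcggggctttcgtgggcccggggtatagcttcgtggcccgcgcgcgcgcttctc
Sesn2, chr4:132510407-132510706, minus strand: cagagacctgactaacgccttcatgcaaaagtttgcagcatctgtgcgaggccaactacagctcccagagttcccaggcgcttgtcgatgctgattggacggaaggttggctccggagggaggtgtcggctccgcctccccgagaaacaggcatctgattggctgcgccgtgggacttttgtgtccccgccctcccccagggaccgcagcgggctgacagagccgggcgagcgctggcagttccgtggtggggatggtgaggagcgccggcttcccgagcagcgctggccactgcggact

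In these windows Trib3 held TGNNGCAAT 33 bases before its RefSeq start, and TGATGNAA on the other strand began 14 bases after it. By the GENCODE position of Trib3 given below, this second match also lies before the gene. Chac1 held both, TGNNGCAAT at the first base of the window and TGATGNAA on the other strand 193 bases before its start. Asns held TGATGNAA 23 bases before its start and Psat1 held TGNNGCAAT 136 bases before the start on which the window shown was built. Mthfd2 and Sesn2 held no match.

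The libraries had 16584117 to 24988880 counts over all genes. Ins1 and Ins2 took 40.3% to 69.4% of the counts. CPM are counts scaled to a common library size. Sst, the hormone of δ-cells, had 0.00 to 0.494 CPM in refed DT, 29.8 to 71.5 CPM in refed control, 0.00 to 4.71 CPM in fasted DT and 13.4 to 43.4 CPM in fasted control mice. The sum of the 4 δ-cell markers (Sst, Hhex, Rbp4 and Ghsr) was lower without overlap in refed DT mice, at 4.05 to 29.4 CPM against 36.9 to 83.7 CPM in refed control mice. It overlapped in fasted mice, at 12.9 to 46.2 CPM in DT and 19.996 to 77.1 CPM in control mice, and of its members Rbp4 averaged 16.5 CPM in refed DT and 10.2 CPM in refed control mice. The summed α-cell and γ-cell markers overlapped between DT and control mice in both feeding states, at 395 to 760 CPM in refed DT and 402 to 726 CPM in refed control mice for the α-cell markers. Refed DT mouse 13 stood apart with insulin at 69.4% of counts and a scaling factor of 0.566, and refed DT mouse 20 had the highest share of mitochondrial counts, 1.35%, and the highest immune marker sum, 334 CPM. Counts of called genes, of the 10 and of the other lists, are therefore also given without these 2 mice where they changed in the feeding comparison of DT mice. Some fold changes of the 10 genes are given in the same way. Acinar markers, 10 of 10 detected in every group, summed to a median of 8105 CPM in refed DT (58.2 to 31699), 10715 CPM in refed control (1180 to 19151), 2187 CPM in fasted DT (95.6 to 17083) and 4193 CPM in fasted control mice (108 to 11915). In bulk RNA, fewer cells of a type and less RNA per cell cannot be told apart.

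Set by length, Atf4 and Asns were the most abundant of the 10. Per kilobase of merged exons, Atf4 (chr15:80255184-80257541, plus strand) averaged 59.1 ± 13.4 CPM in refed DT, 53.3 ± 7.39 CPM in refed control, 53.9 ± 13.8 CPM in fasted DT and 61.7 ± 16.7 CPM in fasted control mice (SD, n = 6, 5, 6 and 5). Asns averaged 41.0 ± 9.89 CPM per kilobase in refed DT, 40.8 ± 4.40 in refed control, 54.7 ± 14.9 in fasted DT and 66.99 ± 11.5 in fasted control mice. Atf4 led in the refed groups by more than either SD, and Asns in the fasted groups by less than either SD. Sesn2 came next after these in every group, at 14.1 ± 3.70 CPM per kilobase in refed DT, 11.4 ± 1.34 in refed control, 27.6 ± 3.95 in fasted DT and 30.0 ± 4.57 in fasted control mice. At the low end, Trib3 was last in the refed groups, at 1.18 ± 1.07 CPM per kilobase in refed DT and 0.611 ± 0.178 in refed control mice, and Psat1 was last in the fasted groups, at 2.03 ± 0.866 in fasted DT and 2.44 ± 0.461 in fasted control mice. Psat1 neighboured Trib3 in the refed groups, at 1.31 ± 0.664 CPM per kilobase in refed DT and 1.17 ± 0.394 in refed control mice, apart by less than either SD in refed DT mice and by more than both in refed control mice.

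**Figure D1:**
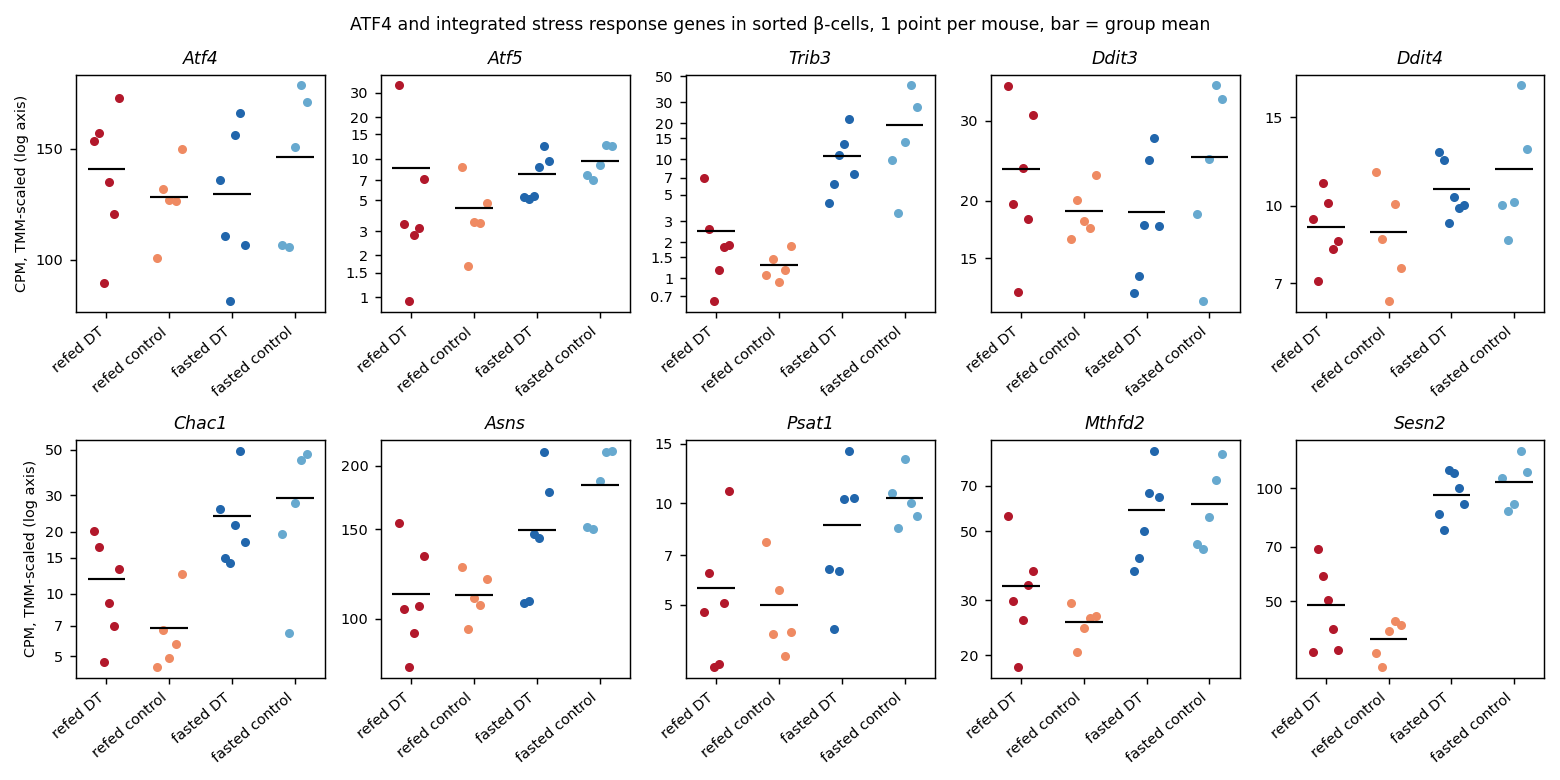
Level of each of the 10 genes in every mouse, in CPM with TMM-scaled library sizes on a log axis, with refed DT, refed control, fasted DT and fasted control mice from left to right and a bar at each group's mean. Sesn2 sits below its fasted level in every refed mouse, while Atf4, Ddit3 and Ddit4 overlap between all groups.

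Across all genes, refed against fasted was the contrast with the most calls. Fasted mice were numbered 1 to 11 and refed mice 12 to 22. If these numbers follow the order of collection, an effect of feeding cannot be told apart from one of order or time. With edgeR's quasi-likelihood test and Benjamini-Hochberg adjustment over 14064 genes, 1521 genes were higher and 1905 lower in refed DT than in fasted DT mice (24.4% called in either direction), and 1537 were higher and 1735 lower in refed control than in fasted control mice (23.3% called in either direction). Of the 10 genes, 3 were lower and 0 higher in refed DT mice, namely Trib3, Mthfd2 and Sesn2, where 13.5% of all genes were lower. In refed control mice 6 of the 10 were lower and 0 higher, namely the same 3 with Chac1, Asns and Psat1, where 12.3% of all genes were lower. The median log2 fold change of the 10 was −0.52 in DT mice and −1.09 in control mice, against −0.06 and −0.04 over all genes tested. In control mice all 10 values were below 0, and in DT mice 7 of 10 were.

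The transcription factors of the set did not pass the test. Atf4 had 91.9, 144 and 180 CPM as lowest, median and highest of refed DT mice and 101, 129, 125, 124 and 150 CPM in refed control mice. It had 86.0, 122 and 171 CPM as lowest, median and highest of fasted DT mice and 106, 105, 151, 189 and 178 CPM in fasted control mice. All 4 groups overlapped. The log2 fold change of refed over fasted was 0.13 ± 0.19 (SE) in DT mice and −0.21 ± 0.20 in control mice, with adjusted p = 0.649 and 0.500 by edgeR. The 95% intervals ran from −0.23 to 0.50 in DT mice and from −0.61 to 0.19 in control mice.

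Ddit3 (chr10:127290774-127296288, plus strand) encodes CHOP, a partner of ATF4 that drives apoptosis under lasting stress. It ranged from 12.7 to 35.7 CPM in refed DT, 16.5 to 22.8 CPM in refed control, 12.6 to 27.5 CPM in fasted DT and 12.05 to 35.8 CPM in fasted control mice. Its log2 fold change of refed over fasted was 0.31 ± 0.26 in DT mice and −0.40 ± 0.28 in control mice, and neither passed (adjusted p = 0.425 and 0.348, edgeR). The value in DT mice was 0.05 without mice 13 and 20. Ddit3 shares 68 bases with Mars1, a tRNA synthetase gene on the opposite strand, in which reads of the 2 genes cannot be told apart since the kit does not mark strand.

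Atf5 (chr7:44812256-44816658, minus strand) encodes a relative of ATF4 under the same translational control, linked to mitochondrial stress. It had 0.929, 3.27 and 34.0 CPM as lowest, median and highest of refed DT mice and 8.75, 1.68, 3.47, 3.44 and 4.79 CPM in refed control mice. It had 5.12, 7.07 and 12.4 CPM as lowest, median and highest of fasted DT mice and 7.66, 7.04, 8.96, 12.6 and 12.3 CPM in fasted control mice. The value of 34.0 CPM came from mouse 13, and the next refed DT mouse had 7.13 CPM. The log2 fold change of refed over fasted in DT mice was 0.11 ± 0.60 with all mice (adjusted p = 0.915, edgeR), and without mice 13 and 20 it was −1.51 and passed (adjusted p = 0.00918). In control mice it was −1.13 ± 0.66 (adjusted p = 0.237), and it passed at −1.14 when edgeR was fitted to those 2 groups alone (adjusted p = 0.0346). Atf5 shares 571 bases with Nup62 and 272 bases with Il4i1, both on the opposite strand. Nup62 had 19.8 to 30.2 CPM and Il4i1 at most 1.01 CPM in refed DT mice, and that highest value was also from mouse 13.

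Trib3 and Chac1 were farthest below 0 of the 10 in control mice. Trib3 (chr2:152337422-152344032, minus strand), a pseudokinase that binds ATF4 and AKT and is induced by both ATF4 and CHOP, had 0.635, 1.87 and 6.95 CPM as lowest, median and highest of refed DT mice and 1.06, 1.45, 0.926, 1.18 and 1.88 CPM in refed control mice. It had 4.26, 9.15 and 21.9 CPM as lowest, median and highest of fasted DT mice and 9.88, 3.55, 13.8, 41.8 and 27.6 CPM in fasted control mice. Refed and fasted control mice did not overlap, while refed DT mouse 13 lay among the fasted DT mice. Trib3 was 4.41-fold lower in refed than in fasted DT mice (log2 fold change −2.14 ± 0.56, adjusted p = 0.00802, edgeR). It was 14.96-fold lower in refed than in fasted control mice (log2 fold change −3.90 ± 0.66, adjusted p = 0.000237, edgeR). Without mice 13 and 20 the log2 fold change in DT mice was −2.70.

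Chac1 (chr2:119351229-119354381, plus strand) encodes an enzyme that degrades glutathione and is a marker of ATF4 activity. It had 4.69, 11.2 and 20.1 CPM as lowest, median and highest of refed DT mice and 4.44, 6.68, 4.91, 5.70 and 12.4 CPM in refed control mice. It had 14.2, 19.7 and 49.5 CPM as lowest, median and highest of fasted DT mice and 19.6, 6.46, 27.7, 44.6 and 47.7 CPM in fasted control mice. Both feeding pairs overlapped, in control mice through fasted mouse 2 at 6.46 CPM. Chac1 fell 4.30-fold in refed control mice against fasted control mice (log2 fold change −2.10 ± 0.49, adjusted p = 0.00376, edgeR). In DT mice the log2 fold change was −1.02 ± 0.43 and did not pass (adjusted p = 0.0928).

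The amino acid and one-carbon enzymes were also lower after the meal in control mice. Asns (chr6:7675169-7693254, minus strand), asparagine synthetase, had 80.5, 105 and 155 CPM as lowest, median and highest of refed DT mice and 127, 95.5, 110, 107 and 120 CPM in refed control mice. It had 107, 146 and 213 CPM as lowest, median and highest of fasted DT mice and 152, 150, 187, 213 and 214 CPM in fasted control mice. Control mice did not overlap between feeding states, and DT mice did. The log2 fold change was −0.42 ± 0.17 in DT mice (adjusted p = 0.0753, edgeR) and −0.71 ± 0.19 in control mice (adjusted p = 0.00732). In DT mice it passed without mice 13 and 20, at −0.56 (adjusted p = 0.0160), and also when mouse 13, fasted mouse 6 or fasted mouse 7 alone was left out.

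Psat1 (chr19:15904678-15947337, minus strand) encodes the second enzyme of serine synthesis. It had 3.27, 4.90 and 10.9 CPM as lowest, median and highest of refed DT mice and 7.69, 4.09, 5.51, 3.53 and 4.14 CPM in refed control mice. It had 4.22, 8.33 and 14.3 CPM as lowest, median and highest of fasted DT mice and 10.7, 8.44, 13.5, 10.04 and 9.16 CPM in fasted control mice. The control groups did not overlap. Psat1 had a log2 fold change of −1.05 ± 0.33 in control mice (adjusted p = 0.0238, edgeR), a call lost when refed control mouse 18, 21 or 22 or fasted control mouse 3 was left out (adjusted p = 0.0537 to 0.0660). In DT mice it was −0.63 ± 0.30 and did not pass (adjusted p = 0.134), but passed without mouse 20, the highest refed DT mouse, at −0.94 (adjusted p = 0.0193). A processed pseudogene, Gm12611, is 91.0% identical to Psat1 over 1056 bases and had 0 counts in all libraries.

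Mthfd2 (chr6:83305691-83325908, minus strand), a mitochondrial folate enzyme of the one-carbon pathway, had 18.4, 31.7 and 55.8 CPM as lowest, median and highest of refed DT mice and 29.5, 20.4, 24.5, 26.4 and 26.7 CPM in refed control mice. It had 37.4, 57.2 and 90.7 CPM as lowest, median and highest of fasted DT mice and 45.6, 43.8, 55.7, 73.3 and 88.2 CPM in fasted control mice. Refed control mice lay below all fasted control mice, and in DT mice mouse 13 overlapped the fasted group. The log2 fold change was −0.80 ± 0.24 in DT mice (adjusted p = 0.0181, edgeR) and −1.27 ± 0.27 in control mice (adjusted p = 0.00153). In DT mice the call was lost without fasted mouse 10, the highest (adjusted p = 0.0572), and without the filter on low counts (adjusted p = 0.0522).

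The brakes on mTORC1, the kinase complex that promotes growth when nutrients are plentiful, differed from each other. Sesn2 (chr4:132492032-132510501, minus strand), a leucine sensor in human cells, had 36.7, 46.4 and 69.0 CPM as lowest, median and highest of refed DT mice and 36.4, 33.5, 41.6, 44.3 and 43.1 CPM in refed control mice. It had 77.6, 95.8 and 112 CPM as lowest, median and highest of fasted DT mice and 107, 86.8, 90.8, 126 and 111 CPM in fasted control mice. Neither pair overlapped, and Sesn2 was the only one of the 10 without overlap in both. Genes lower without overlap made up 6.11% of all genes in DT mice, where 1 of the 10 was such a gene, while genes higher without overlap made up 4% in DT mice and 10.4% in control mice and held 0 of the 10. The share lower without overlap was 11.1% in control mice, where 5 of the 10 were (Trib3, Asns, Psat1, Mthfd2 and Sesn2). Sesn2 was 1.96-fold lower in refed than in fasted DT mice (log2 fold change −0.97 ± 0.15, adjusted p = 6.92e-05, edgeR) and 2.62-fold lower in refed than in fasted control mice (log2 fold change −1.39 ± 0.16, adjusted p = 5.18e-06).

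Ddit4 (chr10:59949669-59951834, minus strand) encodes REDD1, which acts through TSC2. It ranged from 7.06 to 11.1 CPM in refed DT, 6.44 to 11.7 CPM in refed control, 9.21 to 12.8 CPM in fasted DT and 8.56 to 17.4 CPM in fasted control mice. Its log2 fold change of refed over fasted was −0.25 ± 0.17 in DT mice (adjusted p = 0.322, edgeR) and −0.42 ± 0.19 in control mice (adjusted p = 0.125). All 4 groups overlapped.

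**Figure D2:**
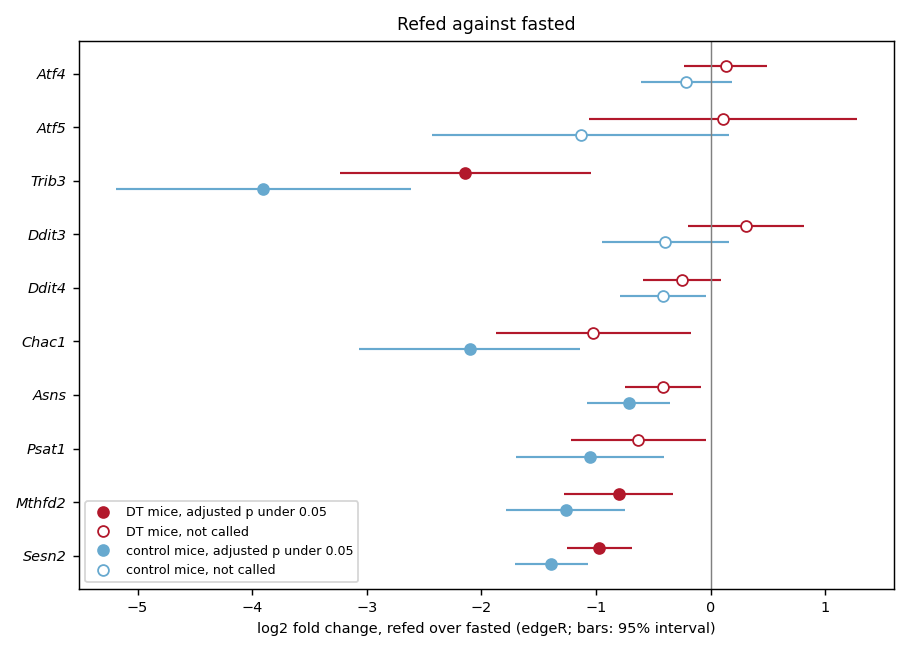
Log2 fold change of refed over fasted for each of the 10 genes in DT mice (red) and control mice (blue). Bars are 95% intervals built from the SE with a normal quantile, and filled points had an adjusted p under 0.05 by edgeR. Filled points all lie below 0, from Asns in control mice at −0.71 to Trib3 in control mice at −3.90.

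Immediate-early and heat shock genes, taken here as markers of handling, moved with the feeding groups in part. Whether their levels reflect handling or the meal was not tested. The sum of Fos, Jun, Egr1, Hspa1a and Hspa1b, genes that rise within minutes to hours of tissue dissociation, had a median of 362 CPM in refed DT (107 to 493.1), 231 CPM in refed control (188 to 446), 371 CPM in fasted DT (327 to 677) and 456 CPM in fasted control mice (241 to 557). With the summed log2 level of these genes as a covariate, 3 of the 10 genes stayed called in DT mice and 5 in control mice, where Psat1 was at −0.94 (adjusted p = 0.0547, edgeR). Since these genes moved in part with feeding, this covariate can also take away part of a feeding difference. With the acinar markers as a covariate, 3 were called in DT mice and 6 in control mice. Without mice 13 and 20, 6 were called in DT mice, since Atf5, Asns and Psat1 were added, and 7 in control mice, where Atf5 was added. Calls over all genes were also more under that setting, at 4197 in DT mice against 3426 with all mice, and at 4325 in control mice against 3272.

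Other genes of the pathway did not all follow the set. Of 15 genes for eIF2 kinases, eIF2, its exchange factor eIF2B and the phosphatases that reset eIF2, 4 were higher and 0 lower in refed DT mice, and 3 were higher and 0 lower in refed control mice. With mice 13 and 20 left out, 5 were higher and 1 lower in refed DT mice. Over all genes, 10.8% were higher and 13.5% lower in refed DT mice, and 10.9% higher and 12.3% lower in refed control mice, and the counts of every list here are to be read against these shares. Eif2s1, the subunit that the kinases phosphorylate, had log2 fold changes of 0.80 ± 0.11 in DT mice and 0.72 ± 0.12 in control mice (adjusted p = 2.63e-05 and 0.000178, edgeR). The exchange factor subunit Eif2b4 rose by 0.53 ± 0.11 in DT mice and 0.34 ± 0.12 in control mice, and Eif2b3 by 0.51 ± 0.12 in DT mice and 0.44 ± 0.13 in control mice. The list median was 0.00 in DT mice and 0.15 in control mice.

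Of 12 other amino acid and one-carbon genes known as ATF4 targets, 3 were lower and 2 higher in refed DT mice, and 6 were lower and 1 higher in refed control mice, with list medians of −0.24 and −0.59. Pck2, the mitochondrial PEP carboxykinase, had log2 fold changes of −0.93 ± 0.15 in DT mice and −1.36 ± 0.17 in control mice. Phgdh, the first enzyme of serine synthesis, had −1.52 ± 0.34 in control mice (adjusted p = 0.00253, edgeR) and −0.66 ± 0.31 in DT mice (adjusted p = 0.121). Aldh1l2, a mitochondrial folate enzyme, had −1.60 ± 0.40 in DT mice and −1.69 ± 0.43 in control mice. Got1, the cytosolic aspartate aminotransferase, went the other way, at 0.59 ± 0.13 in DT mice and 0.54 ± 0.14 in control mice.

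Of 9 amino acid transporter genes, 1 was lower and 1 higher in refed DT mice and 1 lower and 0 higher in refed control mice, close to those shares. Slc38a2, which carries glutamine and alanine into cells, had −0.93 ± 0.14 in DT mice and −0.92 ± 0.15 in control mice (adjusted p = 5.75e-05 and 0.000163, edgeR). Slc3a2, the heavy chain shared by several exchangers, had 0.45 ± 0.11 in DT mice (adjusted p = 0.00518). Of 13 genes for cytosolic tRNA synthetases and tRNA export, 1 was lower and 3 higher in refed DT mice, and 4 were lower and 4 higher in refed control mice. The counts in refed DT mice were 0 lower and 5 higher without mice 13 and 20. Lars, for leucine, was lower in both, at −0.32 ± 0.11 in DT mice and −0.54 ± 0.12 in control mice, and Eprs, for glutamate and proline, was higher in both, at 0.44 ± 0.10 in DT mice and 0.46 ± 0.11 in control mice.

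Of 15 tested signalling and transcription targets, out of 18 listed, 3 were lower and 1 higher in refed DT mice, and 7 were lower and 1 higher in refed control mice. In DT mice 4 were lower and 1 higher when mice 13 and 20 were left out. Jdp2, Tnfrsf10b and Adm2 did not pass the filter on low counts. Eif4ebp1, a repressor of cap-dependent translation, had −1.70 ± 0.41 in control mice, and the stress hormone gene Gdf15 had −2.34 ± 0.66 (adjusted p = 0.00452 and 0.0122, edgeR). Gadd45a, a growth arrest gene that p53 also induces, was the one that rose, by 1.93 ± 0.19 in DT mice and 2.05 ± 0.21 in control mice. Of 8 paralogues of the set, 1 was higher and 1 lower in refed DT mice and 2 higher and 1 lower in refed control mice: Sesn1 had −0.80 ± 0.13 in DT mice and −0.65 ± 0.14 in control mice, while Trib1 had 0.71 ± 0.20 in DT mice and 0.61 ± 0.21 in control mice. Leaving out mice 13 and 20 gave 2 paralogues higher and 1 lower in refed DT mice.

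The called genes of the other branches of the unfolded protein response were all higher after the meal. The list of 15 held targets of IRE1 and ATF6 together with Ern1 and Atf6, the genes of these sensors themselves. Of the 15, 8 were higher and 0 lower in refed DT mice, and 10 were higher and 0 lower in refed control mice. Over all genes, 10.8% and 10.9% were called higher. Creld2, an endoplasmic reticulum chaperone, had 1.37 ± 0.21 in DT mice and 1.67 ± 0.23 in control mice, and Dnajb9, a co-chaperone, had 0.72 ± 0.17 in DT mice and 1.3 ± 0.19 in control mice. Without mice 13 and 20 the counts higher were 9 in DT mice and 10 in control mice. Of 8 genes for the mitochondrial stress relay and chaperones, 4 were higher in refed DT mice and 3 in refed control mice, and 0 were lower in either. Those higher numbered 5 in DT mice and 5 in control mice without mice 13 and 20. Hspd1, the mitochondrial chaperonin, had 0.99 ± 0.11 in DT mice and 1.35 ± 0.12 in control mice. Its partner Hspe1 had 1.57 ± 0.18 in DT mice and 1.79 ± 0.20 in control mice. Of 9 brakes on mTORC1 outside the set, 1 was lower in refed DT mice, Tsc2 at −0.48 ± 0.12, and 0 in refed control mice by edgeR. With mice 13 and 20 left out, 3 of these brakes were lower in refed DT mice.

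**Figure D3:**
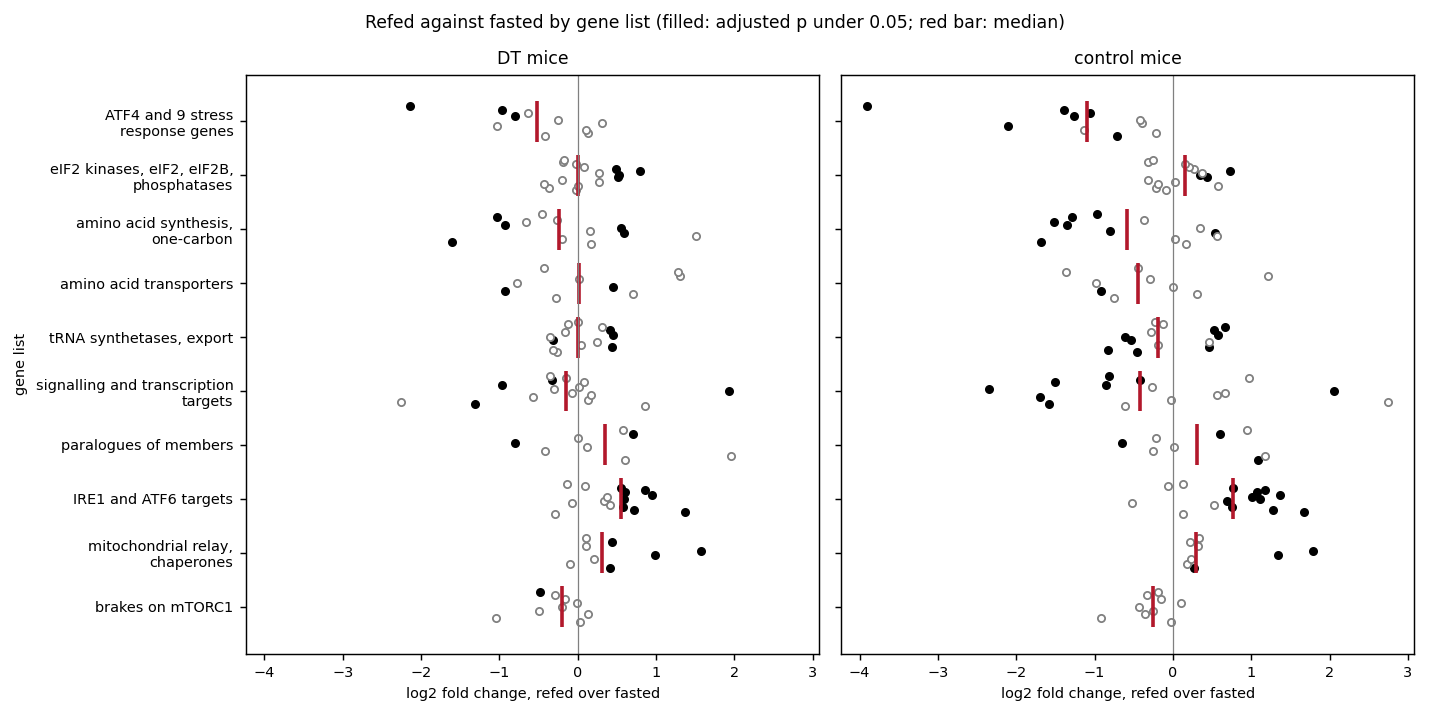
Log2 fold change of refed over fasted for every tested gene of the 10 lists, 1 row per list, in DT mice (left) and control mice (right). Filled points had an adjusted p under 0.05. Red bars are list medians, at −0.52 and −1.09 for the set of 10 and at 0.55 and 0.77 for the row of IRE1 and ATF6 targets. That row also holds the sensor genes Ern1 and Atf6.

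DT against control asked whether stress response genes differed in level between β-cells of DT and of control mice. No gene of the set passed the test in this comparison. In refed mice 3 genes were higher (0.0213%) and 2 lower (0.0142%), 5 in all (0.0356% of those tested), and 0 of the 10 were among them, with 0 of the 10 at an unadjusted p under 0.05. In fasted mice 3 genes were higher (0.0213%) and 1 lower (0.00711%), 4 in all (0.0284%), and 0 of the 10, again with 0 at an unadjusted p under 0.05. For the DT effect averaged over feeding states 15 genes were higher (0.107%) and 14 lower (0.0995%), 29 in all (0.206%), and 0 of the 10, with 0 at an unadjusted p under 0.05. Over the table DESeq2 called 86 genes in refed mice, 50 in fasted mice and 186 for the averaged effect, limma voom called 1, 4 and 25, and both called 0 of the 10 in each. Without mice 13 and 20, edgeR called 175, 26 and 123 genes and 0 of the 10. The adjusted p-values of the 10 by edgeR ran from 0.519 to 0.997 in refed mice and from 0.705 to 0.971 in fasted mice, and every DT group overlapped its control group for every one of the 10. Over all genes, DT mice lay wholly below controls for 0.562% and wholly above for 0.427% when refed, and for 0.775% and 1.1% when fasted.

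The signs nevertheless differed between feeding states. In refed mice all 10 fold changes of DT over control were above 0, with a median of 0.30, and in fasted mice all 10 were below 0, with a median of −0.27, while 50.6% of all genes in refed mice and 48.1% in fasted mice lay below 0. Many of the 10 genes varied together between mice, so these are not 10 separate observations. The largest in refed mice were Atf5 at 0.92 ± 0.64, Trib3 at 0.91 ± 0.61 and Chac1 at 0.79 ± 0.46, and the largest in fasted mice was Trib3 at −0.85 ± 0.54. Without mice 13 and 20, 6 of the 10 were above 0 in refed mice, with a median of 0.04, and Atf5 was at −0.77 and Trib3 at 0.28. Sesn2 was at 0.30 ± 0.15 in refed mice, with an unadjusted p of 0.0625 and an adjusted p of 0.519 by edgeR. Its 95% interval of 0.0006 to 0.60 uses a normal quantile and is narrower than that test implies. Without mice 13 and 20 Sesn2 was at 0.49 (adjusted p = 0.108, edgeR).

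**Figure D4:**
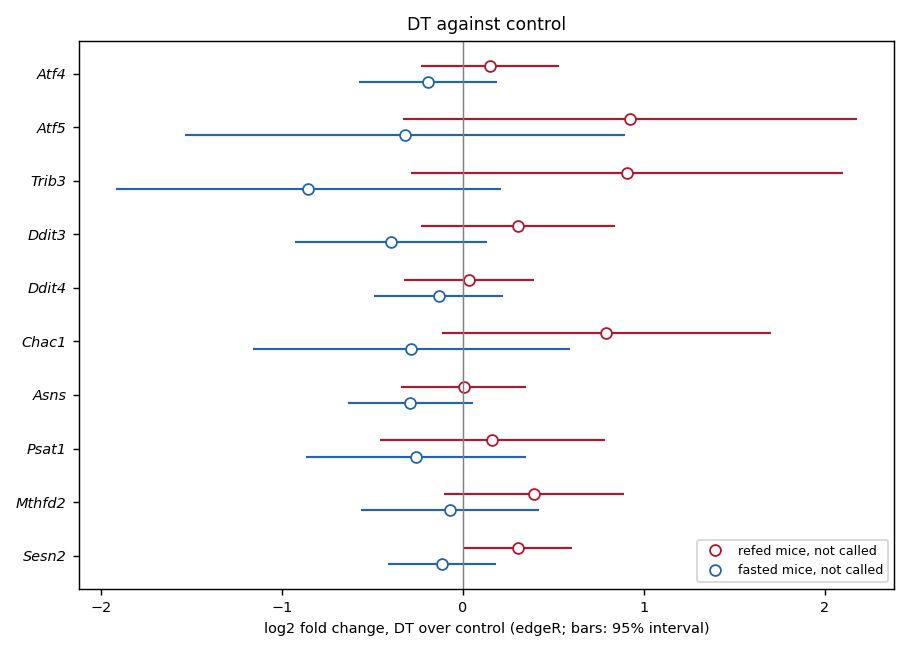
Log2 fold change of DT over control for each of the 10 genes in refed mice (red) and fasted mice (blue). Bars are 95% intervals built from the SE with a normal quantile. All points are open since none had an adjusted p under 0.05, and refed points lie above 0 and fasted points below 0.

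Whether refeeding acted to a different extent in DT mice was tested by the difference of the DT effect between refed and fasted mice, in which 1 gene in all was called (0.00711%) and 0 of the 10, by edgeR. At an unadjusted p under 0.05 there was 1 of the 10, Trib3. Its difference was 1.76 ± 0.82 (adjusted p = 0.692, edgeR). DESeq2 and limma voom called 0 of the 10. The fall of Trib3 in refed DT mice was thus smaller on the log2 scale than that in refed control mice by a difference that did not pass over all genes, and without mice 13 and 20 it was 1.17. Sesn2 had a difference of 0.42 ± 0.22 and Chac1 one of 1.08 ± 0.64, with adjusted p = 0.726 and 0.774. That 6 genes passed in control mice and 3 in DT mice is therefore not shown to be a difference between them. Of the 104 genes of the other lists, 0 were called by edgeR in any DT comparison or in this difference, while 13 in refed mice, 8 in fasted mice, 12 for the averaged DT effect and 9 for the difference had an unadjusted p under 0.05. These were 12.5%, 7.69%, 11.5% and 8.65% of the 104, near the 10.03%, 8.33%, 11.9% and 7.14% of all genes. Over the other settings, which numbered 31 in refed and in fasted mice and 30 for the averaged effect and the difference, DESeq2 and limma voom included, at most 1 gene of a list was called, and that in the averaged DT effect. The smallest unadjusted p among their genes for DT in refed mice was that of Gdf15, at 2.17 ± 0.65 (adjusted p = 0.239, edgeR). Its levels were near the floor, at 0.202 to 3.38 CPM in refed DT mice (median 0.516) and 0.130 to 0.338 CPM in refed control mice.

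Within groups the set split by how its genes varied from mouse to mouse. Each group's mean of log2 CPM was taken away first. Of the 45 pairs of genes, 21 were correlated across the 22 mice at an adjusted p under 0.05 by permutation, all with positive r. Permutations were made within groups (100000 permutations, adjusted over the 45 pairs). The share of pairs of other genes that would pass was not computed, so the count has no background to be read against. The closest pair was Asns with Mthfd2 (Pearson's r = 0.945, Spearman's rho = 0.916, permutation p = 1e-05, the smallest these permutations can give, adjusted p = 9e-05), and r was 0.918 without the 2 mice farthest from the median. Trib3 with Ddit3 had r = 0.906 and rho = 0.863 (permutation p = 1e-05, adjusted p = 9e-05), and r was 0.862 without 2 mice. Atf4 with Chac1 had r = 0.854 and rho = 0.896 (permutation p = 1e-05, adjusted p = 9e-05), and r was 0.840 without 2 mice.

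Sesn2 and Ddit4 stood outside. No pair with either of them passed, with r from −0.32 to 0.16 for Sesn2 and from −0.24 to 0.16 for Ddit4. Sesn2 was thus among the genes with the clearest fall after refeeding, yet none of its correlations within groups passed. Without the 2 mice farthest from the median, its r ran from −0.10 with Ddit4 to 0.32 with Atf4. A weak relation is therefore not shown to be absent. Atf4 with Asns had r = 0.539 and rho = 0.535 (permutation p = 0.0254, adjusted p = 0.0519) and did not pass.

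**Figure D5:**
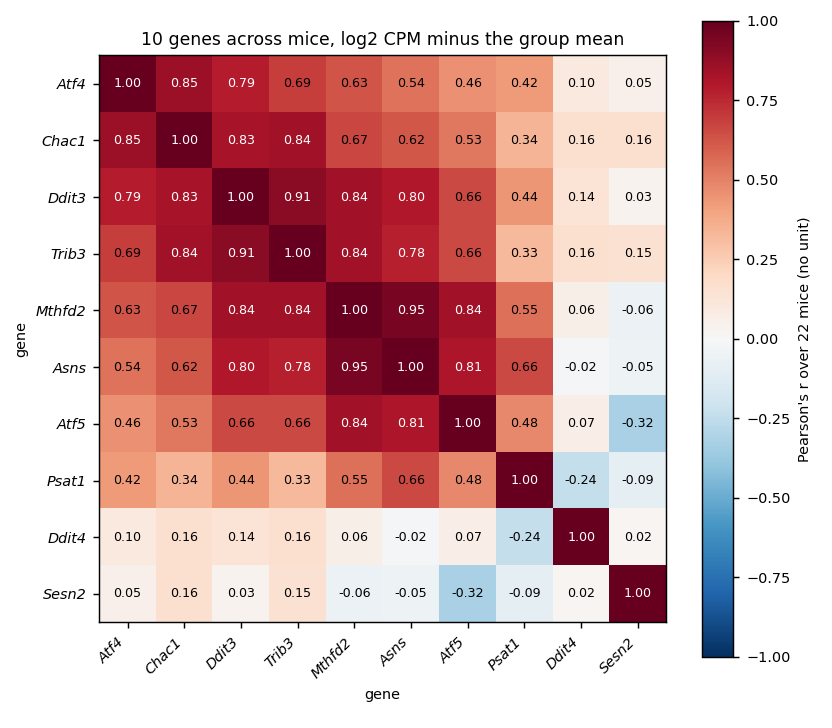
Pearson's r between each pair of the 10 genes across 22 mice, from log2 CPM with the group mean taken away, with genes ordered so that correlated ones are neighbours. Asns with Mthfd2 reaches 0.95 and Trib3 with Ddit3 0.91, while the rows of Ddit4 and Sesn2 stay between −0.32 and 0.16.

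Some mice were the lowest or highest of their group for most of the 10 genes. Fasted control mouse 2 was the lowest of its group for all 10 genes, refed DT mouse 15 was the lowest of its group for 8 and fasted DT mouse 10 the highest of its group for 8, in both cases all but Ddit4 and Sesn2. The highest fasted control mouse had 11.8 times the Trib3 level of the lowest. Of 60 relations between the 10 genes and measures of the libraries (handling, acinar and immune markers, insulin share, mitochondrial share and total count), 0 had an adjusted p under 0.05 by permutation. The nearest were Psat1 with acinar markers (r = −0.67, rho = −0.70, permutation p = 0.00248, adjusted p = 0.133) and Ddit4 with the handling genes (r = 0.62, rho = 0.60, permutation p = 0.00445, adjusted p = 0.133). Without the 2 mice farthest from the median these were −0.52 and 0.51.

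Over the whole table the nearest neighbours of Atf4 and Trib3 were largely of the same pathway. Among 7868 other genes that averaged 3 or more on the log2 CPM scale, those most like Atf4 across the 22 mice were Chac1 (r = 0.854), Herpud1 (0.822), Asb11 (0.811), Ddit3 (0.787) and Gpt2 (0.781). Herpud1 encodes a protein of endoplasmic reticulum degradation and Gpt2 a mitochondrial alanine aminotransferase. For Trib3 they were Ddit3 (r = 0.906), Eif4ebp1 (0.856), Mthfd2 (0.840), Chac1 (0.839) and Asns (0.776) of 7869 genes. Among the 7868 genes ranked by likeness to Atf4, Ddit4 was at rank 2560 and Sesn2 at rank 3116. Trib3 averaged under 3 and was not one of the genes ranked, but its r of 0.688 with Atf4 would take rank 9. These values describe mice that share a group mean removed from each, and they carry no p.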

How the data were processed

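Counts of reads per gene for 22 mice were used as deposited. The submitters' processing notes name build GRCm38.p6, the aligner STAR (2.7.2b), HTSeq (0.9.1) for counting and DESeq2 (1.28.1). Their parameters, gene annotation and handling of strand are not given in the sources used here. Per the labels' protocols, cDNA was amplified with a SMARTer low-input kit and tagmented with Nextera XT, which does not mark strand. The table had 0 columns without a mouse. Each mouse number occurs once, so libraries were treated as separate animals.

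In R 4.3.3 with edgeR 4.0.16, genes were filtered by group (filterByExpr), libraries scaled by TMM, and robust quasi-likelihood fits made with a coefficient per group. Of 52327 genes, 24242 had no count, 14064 were tested, and 14021 with few counts held at most 0.176% of a library. Adjusted p-values are Benjamini-Hochberg over all genes tested, with a threshold of 0.05, and SEs were derived from the F statistic. CPM use TMM-scaled library sizes, and log2 CPM a prior count of 2. Alternatives used limma 3.58.1 (voom), DESeq2 1.42.0, RLE factors, no filter, 2-group fits, insulin genes left out, covariates, and mice left out 1 at a time or 13 and 20 together. The scripts were tested on simulated data.

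Gene positions, exon lengths and overlaps came from GENCODE M21 on the same build, and promoters from RefSeq. The 10 genes and the lists were chosen with earlier results of these data known. The rule for naming genes was all 10 in every comparison, of each other list up to 4 with the smallest p in a feeding comparison and up to 2 elsewhere, and the 5 genes most like Atf4 and Trib3 by Pearson's r. Counts carry no molecular identifiers. The p-values of the comparisons set a difference between groups against the spread between mice.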

Additional observations from a re-analysis of the deposited data

Results flagged for a closer look

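Dixon's 95% limit was applied to 40 combinations of gene and group, each of 5 or 6 mice. Of the values of the 10 genes, 4 lay farther from the rest of their group than this limit. A rate of about 1 in 20 by chance holds only for independent values with a normal spread. These were CPM rather than log2 values, of genes many of which varied together, so the number of flags is not set against chance. Atf5 was at 34.0 CPM in refed DT mouse 13, and the next refed DT mouse had 7.13 CPM. Trib3 was at 6.95 CPM in the same mouse, against 2.57 CPM in the next. Chac1 was at 12.4 CPM in refed control mouse 22, with 6.68 CPM in the next refed control mouse. Chac1 was also high in fasted DT mouse 10, at 49.5 CPM, with 25.7 CPM in the next fasted DT mouse.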

How the results depend on the processing

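Results of the edgeR comparisons were recomputed under 9 other settings (8 for the averaged DT effect and the difference, for which no fit of 2 groups exists) and without each of the 22 libraries; the covariate of handling genes was chosen after the data had been seen. The falls of Trib3 and Sesn2 after refeeding in both DT and control mice, and of Chac1, Asns and Mthfd2 in control mice, passed under every one of these settings. Mthfd2 in DT mice was lost without the filter (adjusted p = 0.0522), with the 2 groups alone (0.0539) and without fasted DT mouse 10 (0.0572), and Psat1 in control mice under the settings named above. Of the 10 genes, 2 to 4 were called in DT mice and 5 to 6 in control mice when 1 library was left out, and 6 in DT mice without mice 13 and 20 together; in the DT comparisons and their difference, 0 were called in every setting. No paired analysis was possible because each mouse number occurs once. Over all genes, counts called in the DT comparisons were small and unsteady. DT against control in refed mice gave 86 genes with DESeq2, 1 with limma voom, 175 without mice 13 and 20, 2 with the 2 groups alone, 12 with the acinar covariate and 1 to 52 with 1 library left out, against 5 in the fit reported. In fasted mice it gave 50 with DESeq2, 26 without mice 13 and 20, 2 with RLE factors or without the insulin genes, 0 without the filter or with the 2 groups alone, and 0 to 19 with 1 library left out, against 4. The averaged DT effect gave 186 with DESeq2, 8 without the filter, 123 without mice 13 and 20 and 4 to 69 with 1 library left out, against 29. The difference of the DT effects gave 21 with DESeq2, 0 with limma voom, 14 without mice 13 and 20 and 1 to 2 with 1 library left out, against 1. For refeeding, 1 library left out gave 2884 to 4399 genes in DT mice and 2641 to 4223 in control mice, the most in both without mouse 13. The cause of these shifts was not tested. Signs turned in 58 cases, and 0 of them concerned a value that passed in the fit reported. With limma voom, Atf5 was at −0.997 for refeeding in DT mice, −0.024 for DT in refed mice and −0.18 for the averaged DT effect, Asns was at −0.032 for DT in refed mice and Trib3 at −0.076 for the averaged DT effect. Without mice 13 and 20, Atf5 was at −1.51 for refeeding in DT mice, −0.77 for DT in refed mice, −0.56 for the averaged effect and −0.42 for the difference; DT in refed mice was −0.015 for Ddit3, −0.20 for Asns and −0.14 for Psat1, and the averaged effect −0.30 for Trib3 and −0.0018 for Mthfd2. With the acinar covariate, Asns was at −0.048 and Psat1 at −0.031 for DT in refed mice and Trib3 at −0.030 for the averaged effect. With the handling genes, Ddit4 was at −0.0066 and Asns at −0.037 for DT in refed mice. With 1 library left out, the DT effect in refed mice ran from −0.095 to 0.084 for Asns, −0.34 to 1.33 for Atf5, −0.066 to 0.15 for Ddit4 and −0.14 to 0.37 for Psat1. In fasted mice it ran from −0.23 to 0.043 for Ddit4 and −0.24 to 0.095 for Mthfd2. The averaged effect ran from −0.073 to 0.037 for Atf4, −0.34 to 0.50 for Atf5, −0.14 to 0.038 for Ddit3, −0.10 to 0.047 for Ddit4, −0.20 to 0.054 for Psat1 and −0.27 to 0.27 for Trib3, and refeeding in DT mice from −1.09 to 0.35 for Atf5. Among pairs of the 10 genes, 21 passed, and under the 2 other settings tried, 21 without mice 13 and 20 and 20 with RLE factors. With 5 or 6 mice a group and a common biological coefficient of variation of 0.373, a DT effect that did not pass is not shown to be absent, and the wide intervals of Atf5, Trib3 and Chac1 leave room for changes in either direction.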
